A study of Homo sapiens with 12 samples.

Results

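Genes that build and control the mitotic spindle were examined across cells transfected with 4 siRNAs. The set was a named list of 52 genes, each found on the array through the accession of its probes in a RefSeq gene table, out of 27522 gene names on the array and 20818 genes tested. It was sorted by role into 11 mitotic kinesins, 12 genes of the centromere and outer kinetochore, 7 of the spindle checkpoint, 5 of anaphase onset and its control, 7 of condensin and chromosome structure, 4 of cytokinesis and 6 other spindle-associated genes. The rule used no measured value, but the list was drawn up with earlier results of these data known. All 52 members were measured, by 70 probes in all, and every member was well above background on all 12 arrays, so the filter on dim probes removed none of them.

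The cells were U2OS, an established human osteosarcoma cell line. All 4 groups received 20 nM siRNA by lipofection, and the methods give 48 h of culture before the cytoplasmic RNA was prepared. The groups were a control siRNA, DBP5 siRNA (DBP5, also named DDX19, is the helicase that remodels mRNA-protein complexes at the nuclear pore), GLE1 siRNA (GLE1 stimulates that helicase) and IPPK siRNA (IPPK makes inositol hexakisphosphate, IP6, the small-molecule cofactor of GLE1). Each siRNA had 3 one-colour arrays, which the methods call independent experiments, and each of the 3 slides carried 1 array of every siRNA.

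A cell that enters mitosis condenses its chromosomes, builds a bipolar spindle and attaches each sister chromatid to microtubules through a kinetochore. Kinesins are microtubule motors that separate the poles, move chromosomes and shape the spindle. The spindle checkpoint holds the anaphase-promoting complex (APC/C) in check until every kinetochore is attached. The APC/C then lets separase cut cohesin, and cytokinesis divides the cell. Most of these genes are expressed late in the cell cycle, in G2 and mitosis, and in proliferating cells their promoters are known for CCAAT boxes, bound by NF-Y, and for the cell cycle genes homology region (CHR), bound by the MuvB complexes with B-MYB and FOXM1. The arrays measured cytoplasmic RNA of whole cultures. Here a change in the share of cells in G2 and mitosis cannot be told apart from a change in cytoplasmic RNA per such cell.

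A level below is a log2 intensity after background subtraction and cyclic loess normalization between arrays, with 1 unit for a doubling. A difference is between means of 3 arrays, a ratio to control is that difference on the linear scale, and its error is the SD of the 3 arrays against the control mean. Adjusted p-values are limma's, over all 20818 genes of a comparison, and a gene was called lower or higher where that value was under 0.05. The comparisons with control share the same 3 control arrays.

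The siRNA targets were checked first. DDX19B, which encodes DBP5, read 0.0643 of control after DBP5 siRNA, GLE1 read 0.102 after GLE1 siRNA, and IPPK read 0.186 after IPPK siRNA. IPPK also fell after DBP5 siRNA, to 0.42 of control, and DDX19B after GLE1 siRNA, to 0.49. Between 70.9% and 77.7% of probes were well above background per array, with the IPPK siRNA arrays lowest as a group. On the control arrays all 6 mesenchymal and osteoblast markers passed the background flag, among them VIM, COL1A1, SPARC and RUNX2. Of the 5 markers of other lineages, CDH1 and ALB were above background on 0 control arrays, while EPCAM, PTPRC and CD3E were above it on all 3. CDH1 was called higher after all 3 knock-downs and has no more than a bound on the control arrays. MALAT1, an RNA kept in the nucleus, was lower after IPPK siRNA (-1.08), and its difference was -0.53 after DBP5 siRNA and -0.33 after GLE1 siRNA, neither called. KCNQ1OT1, the other nuclear RNA measured, was higher after all 3, by 0.64, 0.84 and 0.22. The part of other cell types or of the fractionation in the results below was not tested.

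What the members had in common in sequence is shown first, because the list was made by function and not by promoter. RefSeq promoters of 300 bases, from 250 before to 50 after the annotated start (GRCh38.p14), were given for 46 of the 52 members, and CENPH, CENPM, TTK, BUB3, UBE2C and RACGAP1 had no entry. The CHR core was searched as TTTGAA or TTCGAA and the CCAAT box as CCAAT, both on either strand. The promoters of the largest fall among the kinetochore genes (SPC25), among the kinesins (KIFC1) and among the spindle-associated genes (HMMR), and of CENPF, are given with those of the 4 members that did not pass the test after GLE1 siRNA, FZR1, SMC2 (whose second probe did pass), ANLN and CENPK (whose results each rest on 1 array). Capitals mark the matches, on either strand, and each sequence runs 5′ to 3′ along its gene. The windows are chr2:168890381-168890680, minus strand, for SPC25, chr6:33391573-33391872, plus strand, for KIFC1, chr5:163460382-163460681, plus strand, for HMMR, chr1:214602945-214603244, plus strand, for CENPF, chr19:3506061-3506360, plus strand, for FZR1, chr9:104094059-104094358, plus strand, for SMC2, chr7:36389612-36389911, plus strand, for ANLN and chr5:65563119-65563418, minus strand, for CENPK.
SPC25: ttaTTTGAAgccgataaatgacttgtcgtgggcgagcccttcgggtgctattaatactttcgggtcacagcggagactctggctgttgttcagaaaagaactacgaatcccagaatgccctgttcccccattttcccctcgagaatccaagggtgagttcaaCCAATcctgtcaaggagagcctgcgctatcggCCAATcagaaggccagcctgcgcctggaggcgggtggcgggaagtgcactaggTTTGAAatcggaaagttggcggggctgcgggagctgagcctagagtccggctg
KIFC1: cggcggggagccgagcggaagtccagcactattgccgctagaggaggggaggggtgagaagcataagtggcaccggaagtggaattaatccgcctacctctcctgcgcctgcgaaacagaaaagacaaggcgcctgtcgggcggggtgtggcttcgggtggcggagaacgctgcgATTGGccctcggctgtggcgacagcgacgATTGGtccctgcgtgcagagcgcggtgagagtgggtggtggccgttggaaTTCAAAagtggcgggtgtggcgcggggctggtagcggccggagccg
HMMR: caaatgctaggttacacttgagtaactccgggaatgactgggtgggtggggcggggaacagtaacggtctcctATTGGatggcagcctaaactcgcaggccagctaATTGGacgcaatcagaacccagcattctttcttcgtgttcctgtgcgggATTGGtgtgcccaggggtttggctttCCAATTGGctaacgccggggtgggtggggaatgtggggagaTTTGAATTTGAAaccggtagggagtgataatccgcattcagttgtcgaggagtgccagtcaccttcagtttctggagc
CENPF: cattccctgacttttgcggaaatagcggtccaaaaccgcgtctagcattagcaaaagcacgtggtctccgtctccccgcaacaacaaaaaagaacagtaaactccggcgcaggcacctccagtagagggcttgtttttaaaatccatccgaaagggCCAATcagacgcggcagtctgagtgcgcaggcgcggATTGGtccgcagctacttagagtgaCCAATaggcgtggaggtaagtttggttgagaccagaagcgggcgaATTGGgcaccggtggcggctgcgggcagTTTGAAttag
FZR1: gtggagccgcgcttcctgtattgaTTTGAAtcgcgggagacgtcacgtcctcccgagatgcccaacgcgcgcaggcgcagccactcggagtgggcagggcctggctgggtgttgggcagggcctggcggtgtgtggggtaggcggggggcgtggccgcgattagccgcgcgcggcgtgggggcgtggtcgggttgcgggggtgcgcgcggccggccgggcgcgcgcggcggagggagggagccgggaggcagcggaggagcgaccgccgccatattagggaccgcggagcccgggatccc
SMC2: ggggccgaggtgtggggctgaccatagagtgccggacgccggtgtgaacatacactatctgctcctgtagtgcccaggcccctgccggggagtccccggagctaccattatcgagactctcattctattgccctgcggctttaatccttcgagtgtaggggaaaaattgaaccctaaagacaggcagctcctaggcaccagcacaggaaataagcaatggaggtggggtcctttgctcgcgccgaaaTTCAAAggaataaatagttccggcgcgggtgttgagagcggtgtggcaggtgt
ANLN: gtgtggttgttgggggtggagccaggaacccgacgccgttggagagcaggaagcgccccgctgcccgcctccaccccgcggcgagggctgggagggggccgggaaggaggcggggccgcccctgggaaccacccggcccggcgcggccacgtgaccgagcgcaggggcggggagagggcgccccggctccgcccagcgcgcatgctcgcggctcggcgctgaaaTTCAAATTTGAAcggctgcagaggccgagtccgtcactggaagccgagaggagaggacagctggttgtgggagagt
CENPK: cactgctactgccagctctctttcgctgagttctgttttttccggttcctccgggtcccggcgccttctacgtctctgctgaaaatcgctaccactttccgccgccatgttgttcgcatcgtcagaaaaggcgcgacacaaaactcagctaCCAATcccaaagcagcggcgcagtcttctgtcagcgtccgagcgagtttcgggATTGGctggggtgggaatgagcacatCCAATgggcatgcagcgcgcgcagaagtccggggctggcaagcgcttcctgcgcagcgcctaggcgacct

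SPC25 has CCAAT boxes at -88 and -56 and a CHR core at -3 from the start, beside another CHR match at -247. HMMR holds 5 CCAAT matches and a repeated CHR core at -28 and -22, and CENPF holds 4 CCAAT matches with the CHR core at 41. FZR1 has no CCAAT match and its single CHR match lies far upstream, at -226. SMC2 has a CHR core at -3 and no CCAAT match. ANLN has a CHR core at -26 and at -20, as a repeat like that of HMMR, and no CCAAT match, and CENPK has 3 CCAAT matches, at -99, -46 and -20, and no CHR core.

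Of the 46 member promoters, 36 (78.3%) held a CHR core, against 16.6% of the 27305 promoters in the table. Within 50 bases of the start, 29 members (63.0%) held it, against 5.05% of all promoters. A CCAAT box was found in 32 members (69.6%), against 35.7%, and 2 or more of them in 43.5%, against 11.3%. Both motifs together were found in 26 members (56.5%), against 6.58%. Matches of the 2 motifs overlapped in 1 member promoter. By position, CHR matches of the members were most frequent from -50 to -1 (37.0% of members, 2.74% of all promoters), and CCAAT matches from -100 to -51 (52.2%, against 13.5%). By role, a CHR core was in 9 of 11 mitotic kinesins, 6 of 10 kinetochore genes, 4 of 5 checkpoint genes, 6 of 7 condensin and chromosome genes, and all 3 cytokinesis genes with an entry. Of a list of other kinesins and kinesin light chains, most of which carry cargo, 1 of 16 held it (6.25%), of the core subunits of the APC/C 2 of 14 (14.3%) and of transcription factors of the mitotic programme 2 of 12 (16.7%). It was more frequent among further kinetochore subunits, with 7 of 17 (41.2%), and among condensin II and cohesin genes, with 4 of 11 (36.4%), than among all promoters. These are matches of letters in a window and not sites of binding.

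**Figure D1:**
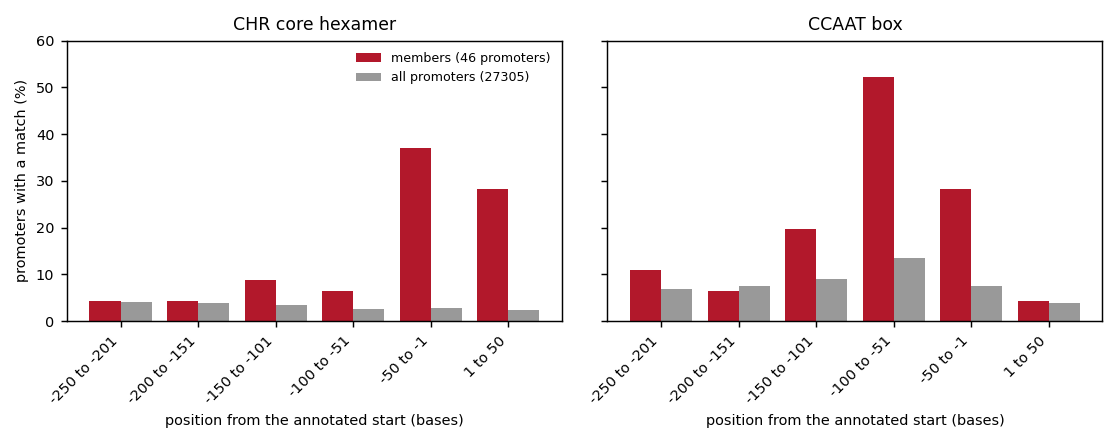
Share of promoters (%) with a CHR core (left) or a CCAAT box (right) in each 50-base window, by distance from the annotated start in bases, for the 46 member promoters (red) and all 27305 promoters (grey). The members' CHR matches peak in the window from -50 to -1 (37.0%) and their CCAAT matches in the window from -100 to -51 (52.2%).

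No CHR core was in the window of 10 members, and 4 of them, KIF2C, CENPE, CENPI and CKAP2, had neither motif. After GLE1 siRNA all 4 were lower than in control, by -1.76, -1.41, -0.64 and -0.70 on the log2 scale. SPC24, with CCAAT boxes only, differed by -2.05.

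The comparison of GLE1 siRNA with control asked which spindle mRNAs in the cytoplasm change when the activator of DBP5 is lost. Of the 52 members, 48 were lower after GLE1 siRNA and 0 were higher, while 31.5% of all genes tested were called lower and 30.6% higher. At an unadjusted p under 0.05 limma gave the same counts, 48 and 0 (32.6% and 32.0% of all genes). The median difference of the members was -1.22 on the log2 scale, and that of all genes was 0.01. At least a 2-fold fall that passed the test was seen in 35 members, against 8.43% of all genes. On all 3 GLE1 arrays 51 members lay below all 3 control arrays, which held for 34.6% of all genes. Within the 3 slides the median difference was -1.22, -1.24 and -1.30.

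After DBP5 siRNA 41 members were lower and 2 higher, beside 27.5% and 26.8% of all genes. The median difference was -0.45, against -0.02 over all genes, and 5 members fell at least 2-fold (4.48% of all genes): ECT2, SPC25, SPC24, NUSAP1 and CENPN. CENPN did so by its brightest probe only (-1.03), with its other probes at -0.88 (called) and -0.06 (not called). After IPPK siRNA 33 were lower and 4 higher, beside 28.0% and 27.3% of all genes. Here the median was -0.34, against -0.03 over all genes, and SPC24 and KIF14 fell at least 2-fold (5.35% of all genes). MKI67 was at -0.89 by its brightest probe and at -1.21 and -1.01 by its other probes, all called. Arrays did not overlap with control, on the lower side, for 41 members after DBP5 siRNA (30.6% of all genes) and 37 after IPPK siRNA (32.8%). The methods' paired t-test called fewer genes, among the members and among all genes. The methods name that test for comparisons shown in figures. For the array gene lists they describe a rank-product method, which was not run here. With Benjamini-Hochberg adjustment it gave 14 members lower and 0 higher after DBP5 siRNA (12.5% and 11.7% of all genes), and 21 lower and 4 higher after IPPK siRNA (17.7% and 18.9%).

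**Figure D2:**
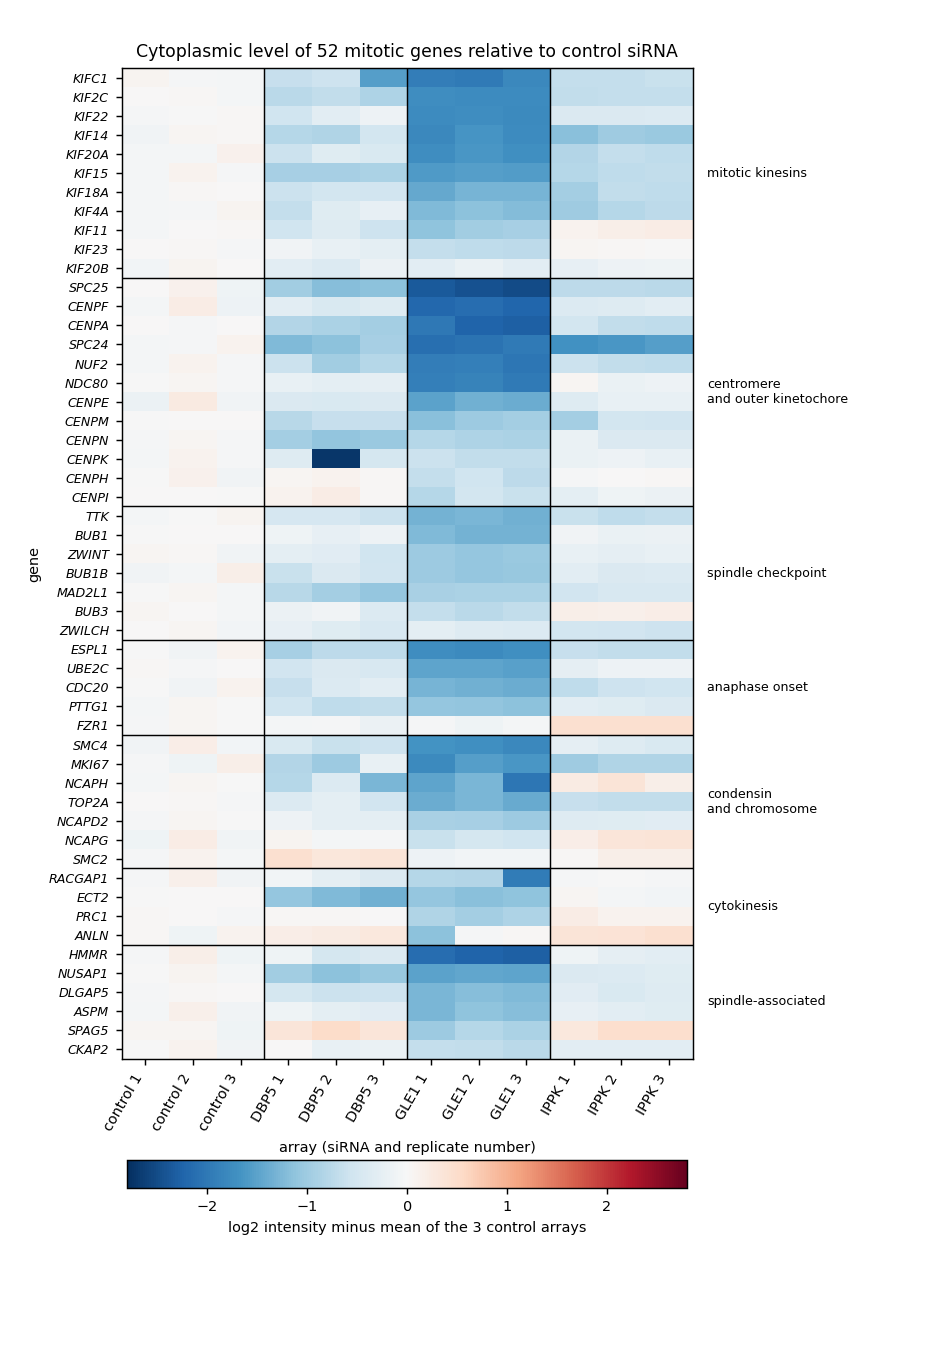
Log2 intensity of the 52 members (rows, by role and by the difference after GLE1 siRNA) on the 12 arrays (columns), each minus the mean of the 3 control arrays, with blue for lower and red for higher. The 3 GLE1 columns are blue in almost every row, with 51 or 52 members below the control mean on each array, and the DBP5 and IPPK columns are paler.

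The knock-downs were also compared with each other, in the same fit. Members were lower after GLE1 siRNA than after DBP5 siRNA in 44 cases and higher in 1 (28.0% and 26.5% of all genes), with a median difference of -0.79 (all genes 0.03), and 13 were at least 2-fold lower (5.35% of all genes). Against IPPK siRNA, 49 were lower and 1 higher (30.8% and 29.4% of all genes), with a median of -0.84 (all genes 0.02), and 21 were at least 2-fold lower (7.21%). The 3 GLE1 arrays lay below all DBP5 arrays in 44 members (30.5% of all genes) and below all IPPK arrays in 50 (34.1%). Between DBP5 and IPPK siRNA 16 were lower after DBP5 siRNA and 10 higher (25.1% and 23.8% of all genes), and the median was -0.13 (all genes 0.00). By the methods' paired t-test these were 8 and 2 (9.95% and 9.02% of all genes). The members not called lower by limma after GLE1 than after DBP5 siRNA were KIF20B, CENPK, CENPN, MAD2L1, ZWILCH, FZR1, ECT2 and ANLN, and those not called lower after GLE1 than after IPPK siRNA were KIF20B, CENPK and ZWILCH.

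**Figure D3:**
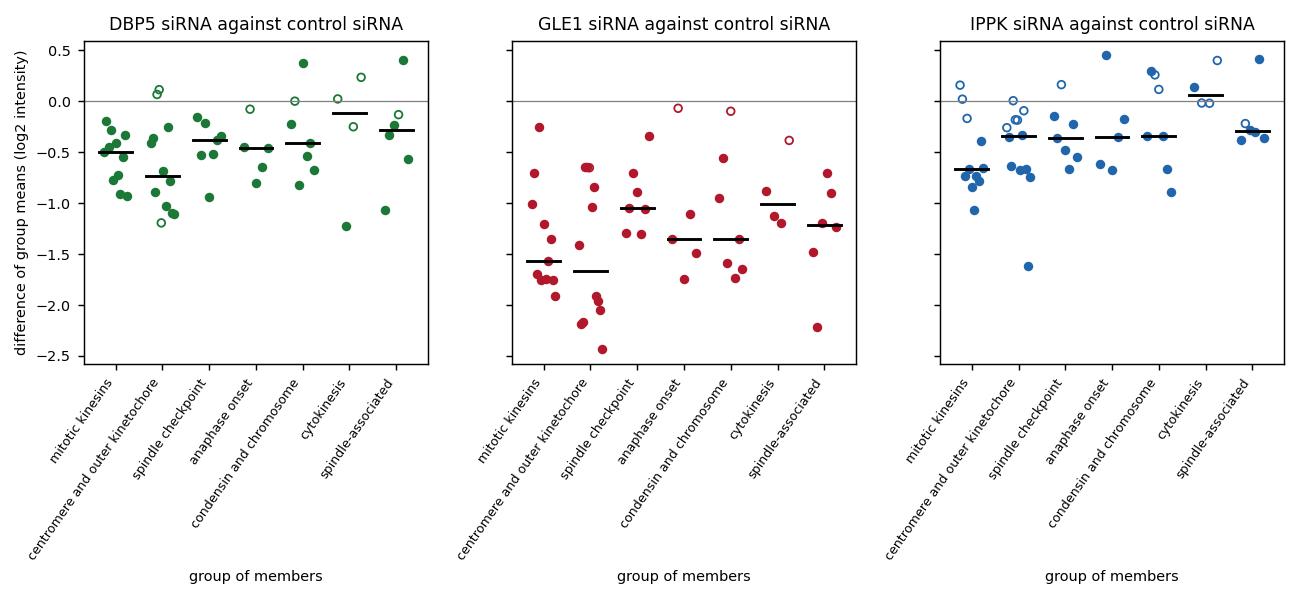
Difference of group means (log2 intensity) between each knock-down and control for every member, by role. Filled points passed limma's test, open points did not, and the bar is the group's median. After GLE1 siRNA the medians lie between -1.66 (kinetochore) and -1.0 (cytokinesis), and after DBP5 and IPPK siRNA between -0.74 and 0.06.

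Mitotic kinesins fell together after GLE1 siRNA. All 11 were lower, 9 of them at least 2-fold, with a median of -1.56. After DBP5 siRNA 11 of 11 were lower as well, with a median of -0.50 and none at 2-fold, and after IPPK siRNA 8 of 11, with a median of -0.67. KIFC1, a minus-end-directed motor that focuses the spindle poles, changed most after GLE1 siRNA. It read 11.99, 11.87 and 11.86 on the control arrays, 11.25, 11.33 and 10.36 after DBP5 siRNA, 9.97, 9.93 and 10.10 after GLE1 siRNA and 11.24, 11.24 and 11.28 after IPPK siRNA. The 3 GLE1 arrays lay below all others, at 0.266 ± 0.0167 of control (SD, n = 3, limma adjusted p = 1.3e-05). The DBP5 array of replicate 3 read well below the others, which widened the error there (0.526 ± 0.18, adjusted p = 0.0029 by limma).

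KIF2C, a microtubule depolymerase at centromeres, KIF22, a chromokinesin, and KIF14, needed late in cytokinesis, differed by -1.76, -1.75 and -1.74 after GLE1 siRNA. Of the kinesins, KIF22 showed by the brightest probes the widest gap to the other knock-downs, -1.42 against DBP5 siRNA and -1.36 against IPPK siRNA. The dimmer probe of KIF20B was at -1.51 for GLE1 against IPPK siRNA. KIF20A, whose motor works at the central spindle in cytokinesis, was at -1.70, and KIF18A, which damps chromosome movement at metaphase, at -1.35. KIF11, the motor that pushes the spindle poles apart, went the other way after IPPK siRNA, at 0.16 (95% interval -0.00 to 0.32, not called), with -0.50 after DBP5 siRNA and -1.01 after GLE1 siRNA. KIF23, a subunit of centralspindlin, was also near control after IPPK siRNA, at 0.02 (interval -0.10 to 0.14).

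KIF20B, a kinesin of the midbody, had the smallest difference of the 11 mitotic kinesins after GLE1 siRNA. Its levels were 9.89, 10.04 and 9.97 on the control arrays, 9.68, 9.58 and 9.80 after DBP5 siRNA, 9.67, 9.79 and 9.68 after GLE1 siRNA and 9.74, 9.82 and 9.84 after IPPK siRNA. After GLE1 siRNA it was at 0.836 ± 0.0378 of control (SD, n = 3, limma adjusted p = 0.00715), and the GLE1 and DBP5 arrays overlapped each other. Its dimmer probe read differently, with -0.72 after GLE1 siRNA and 0.79 after IPPK siRNA, both called, so the gene's value depends on the probe. Probes of KIF4A may also bind transcripts of its close copy KIF4B.

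Of the 12 genes of the centromere and outer kinetochore, 11 were lower after GLE1 siRNA, 8 of them at least 2-fold, with a median of -1.66. After DBP5 siRNA 9 were lower (median -0.74) and after IPPK siRNA 7 (median -0.34). The NDC80 complex was among the lowest after GLE1 siRNA. Its 4 subunits, NDC80, NUF2, SPC24 and SPC25, link the kinetochore to microtubules. They differed from control by -1.92, -1.96, -2.05 and -2.43. SPC25 read 14.46, 14.58 and 14.33 on the control arrays, 13.49, 13.26 and 13.30 after DBP5 siRNA, 12.10, 12.03 and 11.95 after GLE1 siRNA and 13.73, 13.72 and 13.70 after IPPK siRNA. All 4 groups were apart, control highest and GLE1 lowest, and GLE1 siRNA left 0.185 ± 0.00997 of control (SD, n = 3, limma adjusted p = 2.18e-09), the largest fall of the 52 members. After DBP5 siRNA the ratio was 0.464 ± 0.0396 and after IPPK siRNA 0.598 ± 0.00661.

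Subunits of the complex were not alike in the other knock-downs. NDC80 read 14.98, 15.06 and 14.96 on the control arrays, 14.78, 14.72 and 14.74 after DBP5 siRNA, 13.09, 13.13 and 13.02 after GLE1 siRNA and 15.05, 14.81 and 14.85 after IPPK siRNA. The IPPK arrays overlapped the controls, with a difference of -0.09 (95% interval -0.24 to 0.06, not called), and the DBP5 arrays lay just below them (-0.25, limma adjusted p = 0.00957). SPC24, in contrast, differed by -1.62 after IPPK siRNA and -1.10 after DBP5 siRNA. The gap between GLE1 and DBP5 siRNA was -1.67 for NDC80 and -0.95 for SPC24.

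CENPF, a large kinetochore and nuclear matrix protein of G2 and mitosis, showed a fall of similar size. Its levels were 14.46, 14.71 and 14.37 on the control arrays, 14.21, 14.08 and 14.15 after DBP5 siRNA, 12.32, 12.38 and 12.29 after GLE1 siRNA and 14.14, 14.15 and 14.21 after IPPK siRNA. The GLE1 arrays stood well below the DBP5 and IPPK arrays, which overlapped each other. The ratio to control was 0.22 ± 0.00739 after GLE1 siRNA, 0.777 ± 0.0363 after DBP5 siRNA and 0.786 ± 0.0204 after IPPK siRNA (SD, n = 3 each, limma adjusted p = 5.66e-09, 0.00336 and 0.0043). CENPA, the histone H3 variant that marks centromeres, differed by -2.17 after GLE1 siRNA, and CENPE, the kinesin-like motor of kinetochores, by -1.41.

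The members that belong to the inner, constitutive centromere network, CENPH, CENPI, CENPK, CENPM and CENPN, differed among themselves. CENPI read 8.40, 8.39 and 8.37 on the control arrays, 8.48, 8.59 and 8.43 after DBP5 siRNA, 7.60, 7.87 and 7.77 after GLE1 siRNA and 8.12, 8.27 and 8.23 after IPPK siRNA. The GLE1 arrays were below all others, at 0.64 ± 0.06 of control (SD, n = 3, limma adjusted p = 2.33e-05), and after DBP5 siRNA the difference was 0.11 (95% interval -0.05 to 0.28). CENPH, its partner, was at 0.07, -0.65 and 0.00 after DBP5, GLE1 and IPPK siRNA, and only the GLE1 value was called. CENPM was lower after all 3, by -0.69, -1.04 and -0.67.

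CENPK rests on 1 array. It read 9.67, 9.83 and 9.69 on the control arrays, 9.37, 7.0 and 9.25 after DBP5 siRNA, 9.14, 9.05 and 9.05 after GLE1 siRNA and 9.54, 9.58 and 9.52 after IPPK siRNA. The DBP5 array of replicate 2 was more than 2 units below its companions, on a probe with a single spot per array, and no comparison of CENPK was called. Without that array the difference after GLE1 siRNA, -0.65, was called lower (limma adjusted p = 8.97e-06), that after DBP5 siRNA was -0.43 (adjusted p = 0.000528 by limma), and that after IPPK siRNA, -0.19, was called as well (adjusted p = 0.0243 by limma). CENPN, which binds the CENPA nucleosome, was by the brightest probes the single member higher after GLE1 than after DBP5 siRNA (0.18, limma adjusted p = 0.0408), with -1.03 after DBP5 siRNA, and is named because it was that exception. Its 3 probes, annotated to different transcripts, disagreed, with differences of -0.84, -1.72 and 0.03 after GLE1 siRNA and -0.33, 0.37 and 0.11 after IPPK siRNA. For GLE1 against DBP5 siRNA they gave 0.18, -0.84 (called lower) and 0.09 (not called), and their mean -0.19. The call of 0.18 was also lost when any 1 of 7 arrays was left out, among them each GLE1 array, with values from 0.15 to 0.20.

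All 7 spindle checkpoint genes were lower after GLE1 siRNA, 4 of them at least 2-fold, with a median of -1.05. All 7 were lower after DBP5 siRNA too (median -0.38), and 6 of 7 after IPPK siRNA (median -0.36). TTK, also named MPS1, the kinase that starts checkpoint signalling at kinetochores, fell most after GLE1 siRNA. It read 10.93, 10.99 and 11.05 on the control arrays, 10.51, 10.52 and 10.39 after DBP5 siRNA, 9.67, 9.72 and 9.65 after GLE1 siRNA and 10.37, 10.28 and 10.31 after IPPK siRNA. No 2 groups overlapped, with the DBP5 and IPPK arrays close together, and the ratio to control was 0.404 ± 0.00921 after GLE1 siRNA (SD, n = 3, limma adjusted p = 9.96e-09).

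BUB1, a checkpoint kinase that recruits the other components, differed by -1.30 after GLE1 siRNA and by -0.16 and -0.15 after DBP5 and IPPK siRNA, all 3 called. GLE1 siRNA was below DBP5 siRNA by -1.14 (limma adjusted p = 2.72e-08). MAD2L1, the protein that binds and inhibits CDC20, had another order. It differed from control by -0.94 after DBP5 siRNA and -0.89 after GLE1 siRNA, with a difference of 0.05 between them (95% interval -0.12 to 0.21, not called), and by -0.48 after IPPK siRNA.

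ZWILCH, of the RZZ complex that brings MAD proteins to kinetochores, was by the brightest probes the only member higher after GLE1 than after IPPK siRNA. Its levels were 12.74, 12.79 and 12.65 on the control arrays, 12.50, 12.39 and 12.27 after DBP5 siRNA, 12.45, 12.37 and 12.34 after GLE1 siRNA and 12.22, 12.18 and 12.14 after IPPK siRNA. All knock-down arrays lay below the controls and the IPPK arrays were lowest, at 0.684 ± 0.0183 of control against 0.79 ± 0.031 after GLE1 siRNA (SD, n = 3 each). The direct difference was 0.21 (limma adjusted p = 0.0186), and it was not called without GLE1 replicate 1 (0.18) or without IPPK replicate 3 (0.19). For BUB3 the 2 probes disagreed: the brighter read -0.71 after GLE1 siRNA, the dimmer -0.09. The dimmer was called higher after GLE1 siRNA than after DBP5 siRNA (0.58) and than after IPPK siRNA (0.28).

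Of the 5 genes of anaphase onset, which hold activators and an inhibitor, 4 fell at least 2-fold after GLE1 siRNA, with a group median of -1.35. Medians were -0.46 after DBP5 siRNA (4 of 5 lower) and -0.35 after IPPK siRNA (4 of 5 lower, 1 higher). ESPL1 encodes separase, the protease that cuts cohesin. It read 13.26, 13.18 and 13.36 on the control arrays, 12.33, 12.52 and 12.53 after DBP5 siRNA, 11.52, 11.49 and 11.55 after GLE1 siRNA and 12.62, 12.57 and 12.58 after IPPK siRNA. Every knock-down array lay below every control array and the GLE1 arrays were lowest, at 0.298 ± 0.00606 of control (SD, n = 3, limma adjusted p = 5.55e-09). UBE2C, the ubiquitin-conjugating enzyme of the APC/C, differed by -1.49, CDC20, its activator in mitosis, by -1.35, and PTTG1, or securin, the inhibitor of separase, by -1.11. PTTG1 has near-identical copies in the genome, so its probe is uncertain.

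FZR1, or CDH1 of the APC/C, replaces CDC20 as activator from late mitosis into G1 and is not to be confused with the cadherin. Its levels were 10.19, 10.28 and 10.21 on the control arrays, 10.18, 10.20 and 10.07 after DBP5 siRNA, 10.19, 10.10 and 10.18 after GLE1 siRNA and 10.68, 10.68 and 10.67 after IPPK siRNA. The DBP5 arrays overlapped the control and the GLE1 arrays. The highest GLE1 array lay just under the lowest control array, with a difference of -0.07 after GLE1 siRNA (95% interval -0.18 to 0.04, not called). The IPPK arrays were above all others, at 1.37 ± 0.00919 of control (SD, n = 3, limma adjusted p = 2.32e-05). Its mitotic counterpart CDC20 differed by -0.61 in the same arrays.

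Within the condensin and chromosome group 6 of 7 genes were lower after GLE1 siRNA, 4 of them at least 2-fold (median -1.36). After DBP5 siRNA 5 were lower and 1 higher (median -0.41), and after IPPK siRNA 4 were lower and 1 higher (median -0.34). The members that moved most were SMC4, MKI67, NCAPH and TOP2A. SMC4, an ATPase core subunit of condensin, read 13.26, 13.54 and 13.28 on the control arrays, 12.94, 12.75 and 12.79 after DBP5 siRNA, 11.69, 11.64 and 11.55 after GLE1 siRNA and 13.12, 13.01 and 12.94 after IPPK siRNA. All GLE1 arrays were below the others, at 0.301 ± 0.0143 of control (SD, n = 3, limma adjusted p = 3.63e-08). MKI67, the Ki-67 protein that coats mitotic chromosomes, differed by -1.65, and TOP2A, the topoisomerase that untangles sister chromatids, by -1.36. The other probes of MKI67 gave -2.28 and -1.35 after GLE1 siRNA.

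The subunits of condensin I did not move alike. SMC2, the ATPase partner of SMC4, read 10.15, 10.30 and 10.13 on the control arrays, 10.64, 10.51 and 10.56 after DBP5 siRNA, 10.06, 10.11 and 10.11 after GLE1 siRNA and 10.23, 10.35 and 10.35 after IPPK siRNA. The DBP5 arrays were above all control arrays, at 1.3 ± 0.0579 of control (SD, n = 3, limma adjusted p = 0.000381), and the GLE1 arrays were just below the control arrays, with a difference of -0.10 (95% interval -0.23 to 0.04, not called). A second probe of SMC2 gave -0.96 after GLE1 siRNA, called lower, and -0.08 after DBP5 siRNA, not called, so this contrast within condensin depends on the probe. NCAPD2, NCAPG and NCAPH, the regulatory subunits of condensin I, differed by -0.95, -0.56 and -1.59 after GLE1 siRNA.

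NCAPH differed between IPPK siRNA and the other knock-downs. It read 6.60, 6.70 and 6.64 on the control arrays, 5.85, 6.27 and 5.37 after DBP5 siRNA, 5.18, 5.38 and 4.62 after GLE1 siRNA and 6.88, 7.01 and 6.82 after IPPK siRNA. The IPPK arrays lay above the controls, though the difference of 0.26 was not called (95% interval -0.25 to 0.76), and the DBP5 and GLE1 arrays lay below, with a wide spread and an overlap with each other. GLE1 siRNA was below IPPK siRNA by -1.85 (limma adjusted p = 4.1e-05), and DBP5 siRNA by -1.08 (limma adjusted p = 0.00255). NCAPG read 8.37, 8.69 and 8.39 on the control arrays, 8.57, 8.42 and 8.46 after DBP5 siRNA, 7.87, 7.99 and 7.93 after GLE1 siRNA and 8.66, 8.83 and 8.84 after IPPK siRNA. After GLE1 siRNA it was at 0.68 ± 0.0284 of control and after IPPK siRNA at 1.23 ± 0.0837 (SD, n = 3 each, limma adjusted p = 0.000299 and 0.017), while 1 IPPK array overlapped the controls.

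Of the 4 cytokinesis genes, 3 were lower after GLE1 siRNA (median -1.0), after DBP5 siRNA 1 of 4 (median -0.11), and after IPPK siRNA 0 were lower and 1 was higher (median 0.06). A count of 1 in 4 is near the share of all genes, 27.5% lower after DBP5 siRNA and 27.3% higher after IPPK siRNA. ECT2, the exchange factor that activates RhoA for the contractile ring, read 10.55, 10.56 and 10.57 on the control arrays, 9.48, 9.31 and 9.20 after DBP5 siRNA, 9.48, 9.39 and 9.43 after GLE1 siRNA and 10.62, 10.51 and 10.49 after IPPK siRNA. The DBP5 and GLE1 arrays lay together, more than 1 unit below control, and the IPPK arrays overlapped the controls. The ratio to control was 0.427 ± 0.0414 after DBP5 siRNA, 0.459 ± 0.0155 after GLE1 siRNA and 0.988 ± 0.0491 after IPPK siRNA (SD, n = 3 each, limma adjusted p = 1.96e-07, 1.85e-07 and 0.855). Between DBP5 and IPPK siRNA the difference was -1.21 (limma adjusted p = 3.5e-07), by the brightest probes the largest of any member in that comparison. A dimmer probe of CENPN was at -1.26 there.

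PRC1, which bundles the antiparallel microtubules of the central spindle, had a different order. Its levels were 14.12, 14.09 and 14.04 on the control arrays, 14.11, 14.12 and 14.10 after DBP5 siRNA, 13.25, 13.14 and 13.21 after GLE1 siRNA and 14.29, 14.19 and 14.19 after IPPK siRNA. The DBP5 arrays overlapped the controls (0.02, 95% interval -0.09 to 0.13), the GLE1 arrays were below all others (0.541 ± 0.0195 of control, SD, n = 3, limma adjusted p = 7.17e-08), and the IPPK arrays were slightly above control (1.1 ± 0.0437, limma adjusted p = 0.0344). RACGAP1, the partner of KIF23 in centralspindlin, read 12.29, 12.46 and 12.22 on the control arrays, 12.25, 12.05 and 11.92 after DBP5 siRNA, 11.53, 11.49 and 10.37 after GLE1 siRNA and 12.30, 12.31 and 12.30 after IPPK siRNA. All GLE1 arrays were below control, at 0.438 ± 0.179 (SD, n = 3, limma adjusted p = 0.00188), and without the low GLE1 array of replicate 3 the difference was -0.81 in place of -1.19, still called. Leaving out that array also made the DBP5 difference of -0.25 a call (limma adjusted p = 0.0374), which would raise the count of cytokinesis genes lower after DBP5 siRNA from 1 to 2.

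ANLN, or anillin, the scaffold of the contractile ring, was the single member whose GLE1 arrays overlapped the controls. It read 10.18, 10.04 and 10.24 on the control arrays, 10.34, 10.38 and 10.45 after DBP5 siRNA, 9.0, 10.12 and 10.18 after GLE1 siRNA and 10.52, 10.53 and 10.61 after IPPK siRNA. The low GLE1 array of replicate 1 set the difference of -0.38 (95% interval -0.94 to 0.17, not called), and without it the difference was 0.00. All 3 IPPK arrays lay above the controls, with a difference of 0.40 that was not called over all arrays and was called without that GLE1 array (limma adjusted p = 0.000489). Leaving it out likewise made the DBP5 difference of 0.23 a call (limma adjusted p = 0.0109).

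All 6 of the remaining spindle-associated genes were lower after GLE1 siRNA (median -1.21), and after DBP5 and IPPK siRNA 4 were lower and 1 higher each (medians -0.28 and -0.29). HMMR, a hyaluronan receptor that also acts in spindle assembly, fell most. By the brightest probes it showed the largest gap of all members between GLE1 siRNA and either other knock-down. It read 13.18, 13.37 and 13.08 on the control arrays, 13.09, 12.72 and 12.81 after DBP5 siRNA, 11.08, 10.97 and 10.92 after GLE1 siRNA and 13.09, 12.95 and 12.92 after IPPK siRNA. The GLE1 arrays stood apart from all 9 others, at 0.215 ± 0.0125 of control (SD, n = 3, limma adjusted p = 2.64e-08), while the control, DBP5 and IPPK arrays overlapped. The difference between GLE1 and DBP5 siRNA was -1.89 (limma adjusted p = 1.6e-07) and that between GLE1 and IPPK siRNA -2.00 (limma adjusted p = 7.5e-08). After IPPK siRNA the difference from control was -0.22 (95% interval -0.45 to 0.01, not called). For GLE1 against IPPK siRNA a dimmer probe of CENPN was at -2.09.

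SPAG5, or astrin, which stabilises spindle poles and kinetochore fibres, moved in opposite directions. Its levels were 13.81, 13.82 and 13.64 on the control arrays, 14.10, 14.27 and 14.09 after DBP5 siRNA, 12.75, 12.95 and 12.86 after GLE1 siRNA and 14.05, 14.23 and 14.23 after IPPK siRNA. All DBP5 and IPPK arrays lay above the controls, at 1.32 ± 0.096 and 1.33 ± 0.0917 of control, and all GLE1 arrays below, at 0.535 ± 0.0375 (SD, n = 3 each, limma adjusted p = 0.00191, 0.00146 and 3.8e-06). Besides SPAG5, NCAPG and PRC1 were also called lower after GLE1 siRNA and higher after another knock-down. The 5 members called higher in any comparison with control were these 3, SMC2 and FZR1.

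NUSAP1, DLGAP5 and ASPM, which bundle or organise spindle microtubules, differed from control by -1.48, -1.23 and -1.19 after GLE1 siRNA. NUSAP1 stood out after DBP5 siRNA, at -1.06. CKAP2, another microtubule-associated protein, changed least of the group after GLE1 siRNA. It read 11.74, 11.85 and 11.66 on the control arrays, 11.75, 11.54 and 11.56 after DBP5 siRNA, 11.09, 11.07 and 10.99 after GLE1 siRNA and 11.45, 11.44 and 11.44 after IPPK siRNA. The GLE1 arrays were below all others, at 0.616 ± 0.0225 of control (SD, n = 3, limma adjusted p = 6.19e-06), and the IPPK arrays, at 0.812 ± 0.00318, were between those and the controls.

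**Figure D4:**
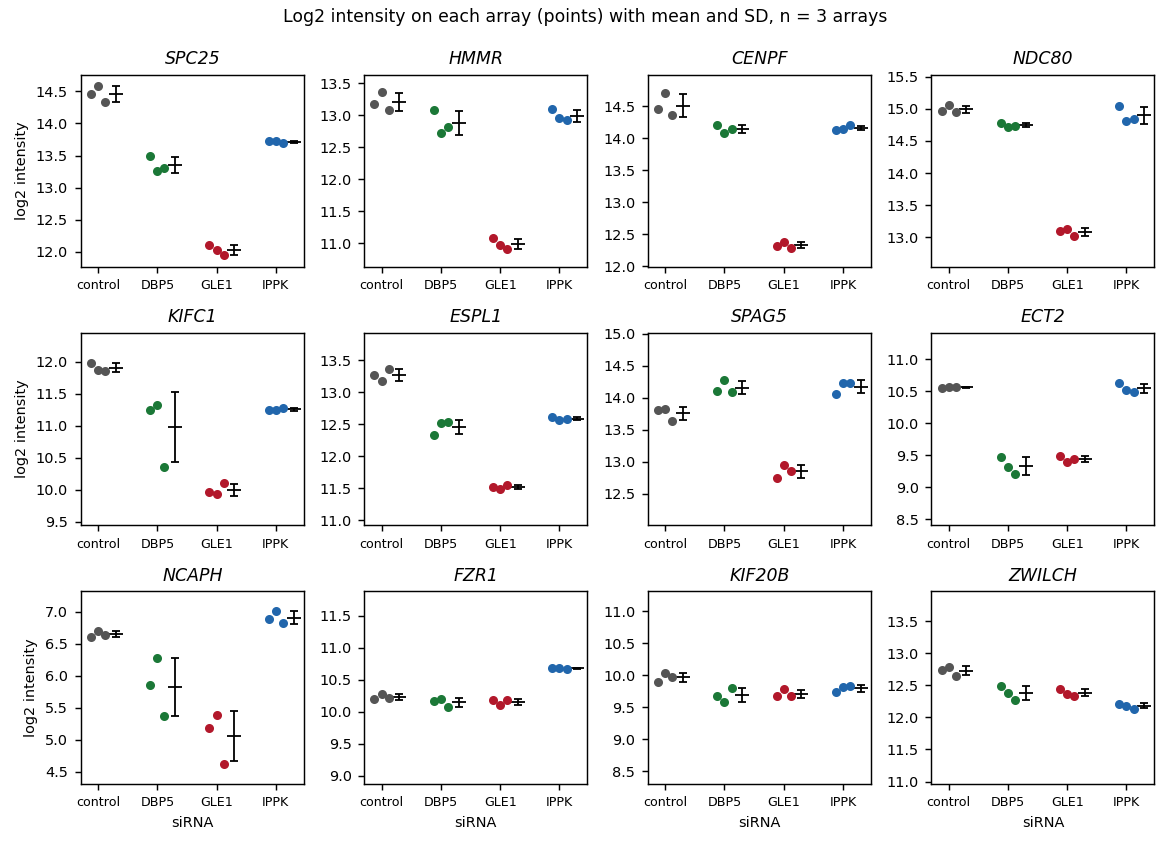
Log2 intensity of 12 members on each array (points, coloured by siRNA), with the mean and SD of the 3 arrays beside them (bars). Every panel spans the same 3 units, and panels are not to be compared in level. SPC25, HMMR, CENPF and NDC80 fall most after GLE1 siRNA, ECT2 falls after DBP5 and GLE1 siRNA, SPAG5 is higher after DBP5 and IPPK siRNA, and FZR1, KIF20B and ZWILCH change little after GLE1 siRNA.

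Related genes outside the list were then described beside the members, with no test of one list against the other. Their counts stand beside 31.5% lower and 30.6% higher over all genes after GLE1 siRNA, 27.5% and 26.8% after DBP5 siRNA, and 28.0% and 27.3% after IPPK siRNA. A list of 21 other kinesins and kinesin light chains holds mostly motors that move cargo along microtubules, and also KIF2A, a microtubule depolymerase. After GLE1 siRNA 6 were lower (28.6%, near the share of all genes) and 10 higher (47.6%), with a median of 0.20. Their values were spread widely. KIF3B, a subunit of kinesin-2, was at -2.88, KIF5C and KIF5B, heavy chains of kinesin-1, at -2.46 and -1.20, and KIFAP3, of kinesin-2, at 1.21. The 10 higher include KIF5A, whose probe was well above background on 2 control arrays and 1 IPPK array and passed the filter through the DBP5 and GLE1 arrays. After DBP5 siRNA 5 of 21 were lower and 10 higher (median 0.23), and after IPPK siRNA 6 were lower and 7 higher (median 0.14).

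Of 20 further kinetochore subunits, 14 were lower and 4 higher after GLE1 siRNA (median -0.70), with SKA2 at -1.64, CENPQ at -1.46 and DSN1 at -1.31 among those that fell, and CENPP, PMF1, KNL1 and MAD1L1 the 4 that rose. For DBP5 siRNA the counts were 13 and 1 (median -0.38), and for IPPK siRNA 9 and 1 (median -0.16). Condensin II and cohesin genes, 14 in all, had 9 lower and 2 higher after GLE1 siRNA (median -0.46). ESCO2 and CDCA5, which establish and protect cohesion, were at -2.83 and -1.67, while the core cohesin subunits SMC1A, SMC3 and RAD21 were at -0.06, -0.38 and -0.95, the first not called. After DBP5 siRNA 9 of the 14 were lower and 2 higher, and after IPPK siRNA 7 and 4.

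The APC/C core, the ligase that CDC20 and FZR1 activate, was listed with 14 subunits. Of these, 8 (57.1%) were lower and 3 (21.4%) higher after GLE1 siRNA, with a median of -0.21. After DBP5 siRNA 5 (35.7%) were lower and 4 (28.6%) higher (median -0.06), and after IPPK siRNA 3 (21.4%) and 6 (42.9%) (median 0.07), so the shares lower in these knock-downs lay near those of all genes. ANAPC16 had the largest difference, at -1.82 after GLE1 siRNA. Among 15 transcription factors of the mitotic programme, 12 were lower and 3 higher after GLE1 siRNA (median -0.46), 8 and 2 after DBP5 siRNA (median -0.22) and 9 and 2 after IPPK siRNA (median -0.23). FOXM1, which drives G2 and mitosis genes, was at -0.49 after GLE1 siRNA, MYBL2, or B-MYB, at -0.36, and LIN52, of the MuvB core, at -2.20. RBL1, or p107, a repressor of the same programme, was at -1.75, and E2F5, another repressor, rose by 1.40. NFYA, a subunit of the CCAAT-binding factor, was at -0.33, and NFYB and NFYC at 0.53 and 0.35.

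**Figure D5:**
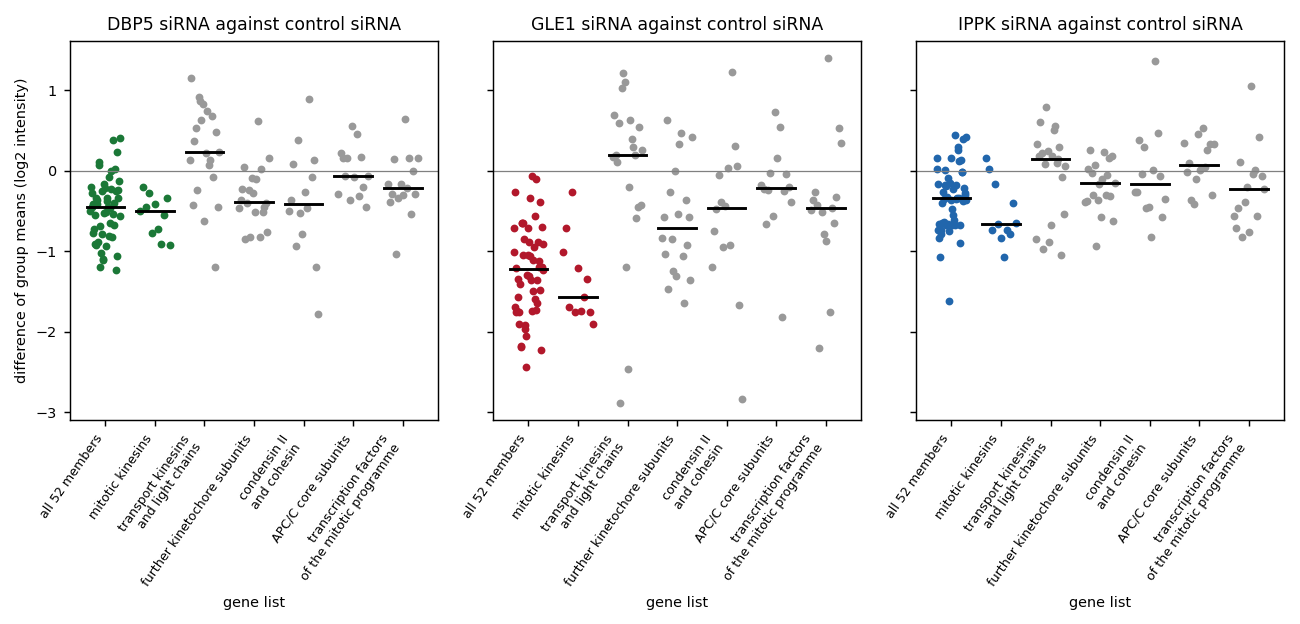
Difference of group means (log2 intensity) from control for every gene of the 52 members, the 11 mitotic kinesins among them, and 5 related lists, after each siRNA. Points are genes and bars are medians. After GLE1 siRNA the median is -1.22 for the members and -1.56 for the mitotic kinesins, and it is 0.20 for the transport kinesins and -0.21 for the APC/C core subunits.

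More than 1 probe was present for 16 members, and all probes were also counted on their own. Of 70 probes, 64 were lower and 0 higher after GLE1 siRNA (31.0% and 31.0% of all probes tested), 55 and 2 after DBP5 siRNA (27.2% and 27.1%), and 44 and 6 after IPPK siRNA (27.7% and 27.4%). By every probe of the gene 46 of the 52 members were lower after GLE1 siRNA (28.5% of all genes), 39 after DBP5 siRNA (24.7%) and 31 after IPPK siRNA (25.3%).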

How the data were processed

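The authors deposited 12 one-colour Agilent arrays, read with Feature Extraction 10.7.3.1 per the file headers, as linear intensity per spot. A further table that the authors deposited holds log2 values after their LOESS normalization in R. Its columns followed the log2 median spot signal without background subtraction, with column medians of 7.75 to 7.76, and it served as an alternative only.

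Here log2 of the background-subtracted intensity was normalized by cyclic loess between arrays. Control spots and the 169 to 358 outlier spots per array were left out, and 0 spots were saturated. Of 34127 probes, 26445 (77.5%) were named through RefSeq (GRCh38.p14, for names, since the array design names hg19), and the others kept the design's name. For each of 27522 gene names the brightest probe was used. The 20818 genes tested had that probe well above background on every array of 1 or more siRNAs. Background subtraction moves dim probes most. Arrays give no counts, so their precision rests on signal over background and on the 3 arrays per siRNA.

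Comparisons used limma 3.58.1 (R 4.3.3) over all 12 arrays, with 1 mean per siRNA, two-sided, and Benjamini-Hochberg adjustment at 0.05 over all genes. Intervals are 95%. The step was checked on simulated data. Tables and figures used Python 3.11.15 with pandas 2.3.3, numpy 2.4.6 and matplotlib 3.10.9. The members and gene lists were chosen with earlier results of these data known. Given on every array were, per role, the members with the largest and the smallest fall after GLE1 siRNA, those called higher against control, and the 3 with the largest difference per pair of knock-downs. Replicate numbers mark the slide, so they pair the arrays: deviations from group means correlated at 0.315 to 0.545 in the 18 same-numbered pairs and at -0.333 to -0.0163 in the 36 others. Deviations cancel out within a group, so positive values in the first set force negative ones in the second.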

Additional observations from a re-analysis of the deposited data

How the results depend on the processing

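The count of members lower after GLE1 siRNA than after control was 48 or 49 under each alternative fitted to all members, and the count higher was 0. Dimmer probes on their own were read gene by gene and have no such count. Requiring the call from every probe of a gene gave 46, without BUB3 and CENPN. Run in turn were the authors' own log2 values, normexp with an offset of 50, quantile or 75th percentile scaling, filters on dim probes set to none or to all 12 arrays, averaged or single probes per gene, fits of the 6 arrays compared, the replicate block, the methods' t-test and each array left out. Of 6972 recomputed values, 6675 kept their status, as a call in the same direction or as no call. A further 192 lost the call, 94 gained it, and 11 called differences changed direction. Sign changes of differences without a call are counted among the 6675 and the 94. With the replicate number as a block, the members lower numbered 41, 48 and 35 after DBP5, GLE1 and IPPK siRNA against control (29.5%, 33.1% and 30.4% of all genes), 45 and 49 after GLE1 siRNA against DBP5 and IPPK siRNA (29.6% and 32.4%), and 16 after DBP5 against IPPK siRNA (27.2%). Of the 312 member differences, the block left 307 unchanged as called or not called, ended 1 call, added 4 and turned none.

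The methods' t-test, which they do not name for the array gene lists, was two-sided and paired by replicate number with 2 degrees of freedom. Of the alternatives it moved counts most. At p under 0.05 without adjustment it gave 26 members lower and 3 higher after DBP5 siRNA (24.0% and 22.2% of all genes), 48 and 0 after GLE1 siRNA (29.5% and 29.1%), and 28 and 5 after IPPK siRNA (25.8% and 26.1%). After Benjamini-Hochberg it gave 14 members lower after DBP5 siRNA (41 by limma) and 0 higher (2 by limma), 48 lower after GLE1 siRNA, and 21 lower after IPPK siRNA (33 by limma), while the shares of all genes called lower went from 27.5% to 12.5% after DBP5 siRNA, from 31.5% to 24.0% after GLE1 siRNA and from 28.0% to 17.7% after IPPK siRNA. For GLE1 against DBP5 siRNA it gave 31 lower and 0 higher, in place of 44 and 1 (13.4% and 12.1% of all genes), for GLE1 against IPPK siRNA 46 and 1, in place of 49 and 1 (25.4% and 23.6%), and between DBP5 and IPPK siRNA 8 and 2, in place of 16 and 10 (9.95% and 9.02%). The single member higher after GLE1 than after DBP5 siRNA was 0 under the t-test, with no filter on dim probes, with the mean of a gene's probes and with only the 6 arrays compared.

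Leaving out each array in turn gave 38 to 43 members lower and 2 to 3 higher after DBP5 siRNA, 48 to 49 and 0 after GLE1 siRNA, and 31 to 35 and 2 to 5 after IPPK siRNA, with 2 higher without control replicate 3 or IPPK replicate 2. Between knock-downs the ranges were 43 to 45 lower and 0 to 2 higher for GLE1 against DBP5 siRNA, 48 to 50 and 0 to 1 for GLE1 against IPPK siRNA (0 without GLE1 replicate 1 or IPPK replicate 3), and 14 to 20 and 7 to 10 for DBP5 against IPPK siRNA. Over all genes the shares lower in these fits were 25% to 28.0%, 29.3% to 31.8% and 25.4% to 28.8% after DBP5, GLE1 and IPPK siRNA, and 25.9% to 28.4%, 28.6% to 31.5% and 22.1% to 25% between knock-downs in the same order. The shares higher were 24.4% to 26.9%, 28.1% to 31.2% and 25% to 28.0%, and 23.8% to 27.2%, 26.4% to 30.2% and 21.4% to 24.2%.

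Of the member differences called with the brightest probe over all arrays, directions changed only with the probe used. With the mean of a gene's probes, CENPN was at 0.053 after IPPK siRNA and -0.19 for GLE1 against DBP5 siRNA, and BUB3 at 0.047 for GLE1 against DBP5 siRNA. By single other probes, KIF20B was at 0.083 after DBP5 siRNA, CENPN at 0.030 after GLE1 siRNA, 0.11 and 0.37 after IPPK siRNA and -0.84 for GLE1 against DBP5 siRNA, BUB3 at 0.58 and 0.28 for GLE1 against DBP5 and IPPK siRNA, and SMC2 at -0.083 after DBP5 siRNA. Differences that were not called changed sign too. For example, KIF20B's other probe gave 0.79 after IPPK siRNA (-0.17 by the brightest) and -0.81 for GLE1 against DBP5 siRNA (0.02), both called, SMC2's gave -0.084 after IPPK siRNA (0.12), and ANLN after GLE1 siRNA went from -0.38 to 0.00055 without GLE1 replicate 1. The cause was not tested.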
